A study of Mus musculus with 6 samples.

Results

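Matricellular and adhesive glycoproteins are secreted proteins that cells use to attach to, and to be instructed by, the extracellular matrix. A set of 10 such genes, *Fn1*, *Postn*, *Tnc*, *Thbs1*, *Thbs2*, *Thbs3*, *Thbs4*, *Sparc*, *Sparcl1*, and *Fbln5*, was followed here, chosen by gene symbol out of 46078 genes in the count tables. RNA-Seq had been performed on 3 infarcts and 3 contralateral cortices, dissected by eye when 7 weeks had passed since the stroke. The mice were wild type C57BL/6J animals, male per the study's methods, with a labelled age of 3 months, and stroke was induced by occlusion of the distal middle cerebral artery combined with hypoxia. The contralateral cortex is therefore tissue of a brain with a stroke and not of a naive one. The labels name no drug or vehicle, although the study's methods describe RNA tissue from mice given either, and they do not state whether an infarct and a contralateral cortex with the same number came from the same mouse or how many mice were used. The *p* values below therefore measure the spread between these samples.

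Fibronectin, the product of *Fn1*, is an adhesive glycoprotein that assembles into fibrils and is bound by integrins. Periostin (*Postn*), tenascin-C (*Tnc*), the thrombospondins (*Thbs1* to *Thbs4*), and SPARC are matricellular proteins, which are scarce in most adult tissues, are induced in healing wounds, and modulate adhesion, growth factors, and collagen assembly more than they bear load. SPARC-like 1 (*Sparcl1*, also called hevin) is a relative of SPARC that adult astrocytes make in large amounts, and hevin and the thrombospondins of astrocytes are known to promote the formation of synapses. Fibulin-5 (*Fbln5*) organizes elastic fibers.

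The total of gene counts per library lay between 11943570 and 19933962. In infarcts, 2.71% to 3.55% of these counts fell on mitochondrial transcripts, against 5.50% to 6.66% in contralateral cortices. Expression is given in counts-per-million units (CPM), scaled with the TMM method of edgeR, as the mean ± SD of 3 libraries unless each library is given. A gene was called higher or lower in infarcts at an adjusted *p* under 0.05 with a fold change above 2. Of 8 neuronal markers, 8 were called lower in infarcts, and their summed expression was 621 to 1635 CPM in infarcts and 8863 to 9586 CPM in contralateral cortices. Library totals used in place of TMM would move the median over all tested genes by 0.20 on the log2 scale, and every fold change is relative to the TMM scale.

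Of the 10 genes, 9 were called higher in infarcts by edgeR's quasi-likelihood test, and DESeq2 and limma-voom gave the same calls. All 10 passed the filter on low counts. Across all 15554 tested genes, 25.7% were called higher, 20.9% lower, and 46.6% in either direction. The remaining gene, *Sparcl1*, passed the adjusted *p* on the lower side but not the fold threshold, so that 0 genes were called lower, also by DESeq2 and limma-voom. Without the fold threshold, 9 of the 10 genes were higher and 1, *Sparcl1*, was lower, against 34.2% and 30.8% of tested genes. The median log2 fold change was 3.73 over the 10 genes and 0.03 over all tested genes. A log2 fold change above 3 was fitted for 7 of the 10 genes and for 9.98% of all tested genes. For 9 genes the 3 infarct libraries all lay above the 3 contralateral libraries, as they did for 37.6% of tested genes, and for *Sparcl1* they all lay below, as for 34.7%. In bulk tissue, a change in the number of cells that make a transcript and a change in transcript per cell cannot be told apart.

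**Figure D1:**
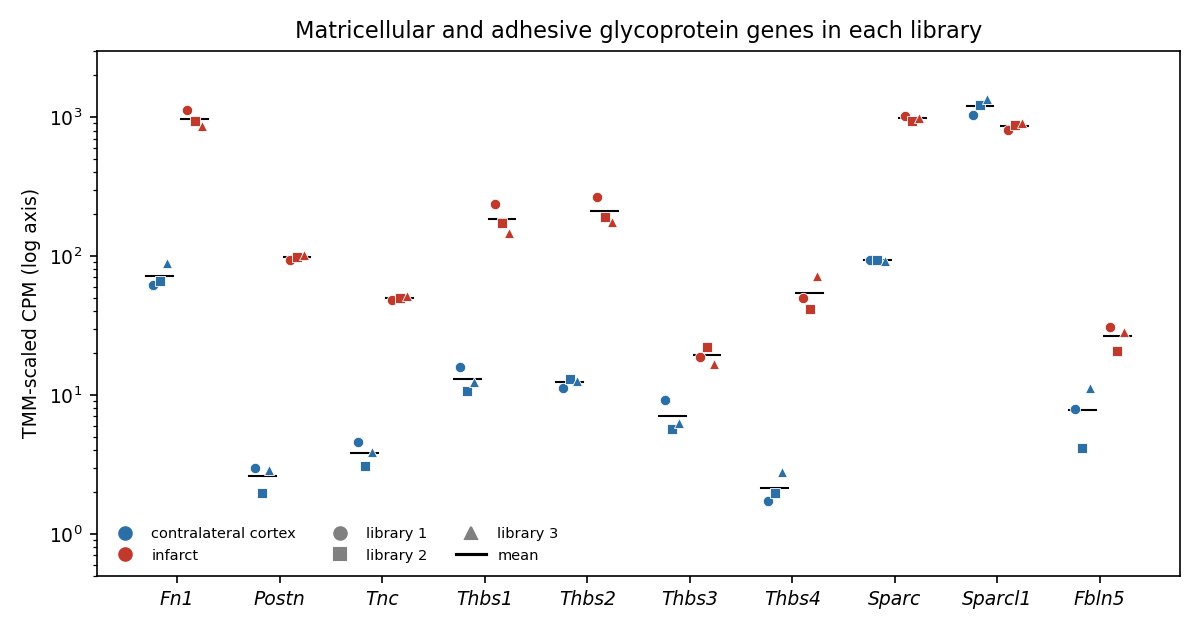
TMM-scaled CPM on a log axis for each of the 10 genes, with 1 point per library (blue, contralateral cortex; red, infarct; the marker shape gives the library number) and a bar at the mean of 3 libraries. The infarct points lie above the contralateral points for every gene but *Sparcl1*, where they lie just below.

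**Figure D2:**
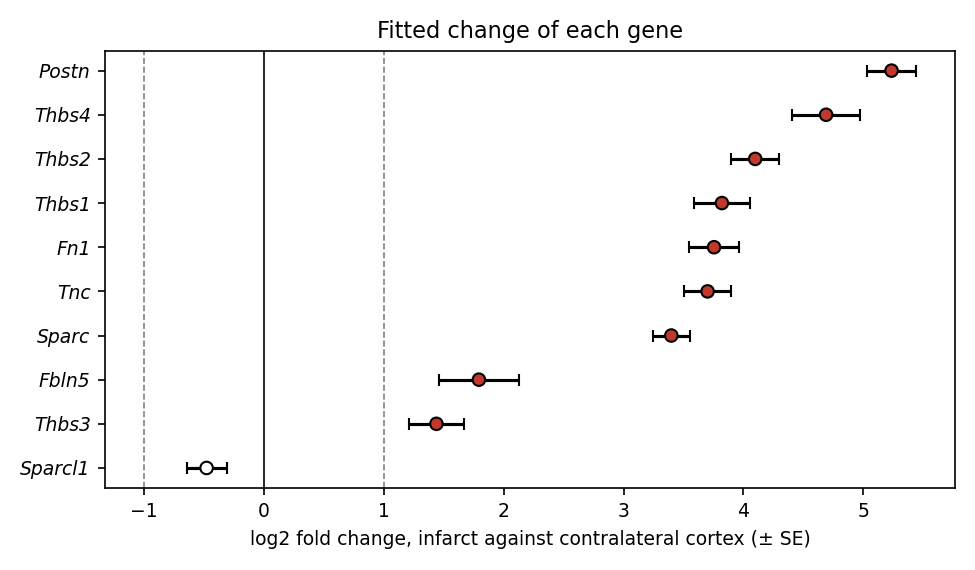
Log2 fold change of each gene, infarct against contralateral cortex, with its standard error from the edgeR fit of 3 and 3 libraries. Dashed lines mark a fold change of 2 in either direction, red points are called higher and the open point, *Sparcl1*, is not called. *Postn* stands at 5.23 and *Thbs3* at 1.44.

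To show the DNA before the transcription starts of genes at either end of this range, upstream sequence was taken from RefSeq on GRCm38.p6, whose table held 7 of the 10 genes with 10 starts (*Fn1*, *Thbs1*, and *Sparcl1* were not used here). *Postn* and *Fbln5* each had a second start, at 54359267 and 101818484, with 0 matches to the motifs searched, which is not shown. The 100 bases before the start are given 5′ to 3′ for *Postn* (chr3:54361007-54361106, plus strand) and *Thbs4* (chr13:92794819-92794918, minus strand), which had the largest log2 fold changes, and for *Thbs3* (chr3:89215080-89215179, plus strand) and *Fbln5* (chr12:101819120-101819219, minus strand), which had the smallest among the genes called higher. Capitals mark matches to the motifs named after the sequences.
Postn: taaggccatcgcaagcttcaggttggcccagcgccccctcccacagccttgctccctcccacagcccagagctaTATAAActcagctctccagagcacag
Thbs4: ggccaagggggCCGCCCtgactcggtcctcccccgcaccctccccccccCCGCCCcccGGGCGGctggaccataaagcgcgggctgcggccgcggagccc
Thbs3: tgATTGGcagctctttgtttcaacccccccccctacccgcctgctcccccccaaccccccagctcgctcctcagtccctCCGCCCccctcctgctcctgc
Fbln5: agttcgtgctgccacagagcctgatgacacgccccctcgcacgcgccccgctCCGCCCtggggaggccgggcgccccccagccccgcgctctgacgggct

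The printed start of *Postn* had a TATA box (TATAAA) 26 to 21 bases upstream on the sense strand, where 2.63% of 32851 promoters held these letters within 50 bases of the start. *Thbs4* had 3 GC boxes (GGGCGG on either strand) in these 100 bases, and *Thbs3* and *Fbln5* each had 1. In what follows, a gene counts if any of its starts held the motif, whereas each percentage is over single promoters, so the measures are not alike. Over 250 bases before each start and on both strands, the TATA box letters were found for 3 of the 7 genes and in 12.4% of all promoters. Only those of *Postn* lay within 50 bases of a start. For *Thbs2* they lay 126 to 121 bases upstream on the antisense strand. For *Tnc* they formed a single site, 126 to 121 bases before 1 start and 205 to 200 before the other. The GC box was found for 4 genes and in 32.7%, and the CCAAT box (CCAAT) for 3 genes and in 33.8%. The letters GGAATG of a TEAD element were found for 1 gene, *Thbs4*, at 2 places that share 1 base, and in 12.6% of promoters. The E-box CAGCTG was found for *Sparc* and in 13.001%. An AP-1 site (TGANTCA) and a SMAD element (GTCTAGAC) were found for 0 of the 7 genes and in 6.75% and 0.167% of promoters. These matches describe letters only, and their part in the fold changes was not tested.

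*Fn1* (ENSMUSG00000026193, GRCm38 chromosome 1, 71585520 to 71653200, minus strand) had 1118, 934 and 867 CPM in infarcts 1, 2 and 3, and 61.6, 65.8 and 89.0 CPM in contralateral cortices 1, 2 and 3. The regions did not overlap, and infarct 1 was the highest library. The log2 fold change was 3.75 (standard error 0.21, edgeR adjusted *p* = 5.30e-07), or 13.5-fold. Exons of *Apol7d* on the opposite strand cover 2.499% of the exon bases of *Fn1*, and whether reads were counted by strand is not given in the sources used here. Counts per gene do not separate the splice forms of fibronectin.

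*Postn* (ENSMUSG00000027750, chromosome 3, 54361109 to 54391037, plus strand) encodes periostin, which binds collagen and integrins. It had 93.5, 98.8 and 102 CPM in infarcts, and 2.98, 1.95 and 2.86 CPM in contralateral cortices, from 57, 30 and 31 counts. Its log2 fold change of 5.23 (standard error 0.20, edgeR adjusted *p* = 1.64e-07), or 37.7-fold, had the highest value of the 10 genes. In CPM, the infarct libraries stood close together, with a coefficient of variation of 4.32%.

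*Tnc* (ENSMUSG00000028364, chromosome 4, 63959785 to 64047015, minus strand) encodes tenascin-C, a hexameric protein that reduces the adhesion of cells to fibronectin. It had 48.0, 50.2 and 51.9 CPM in infarcts against 4.54, 3.06 and 3.88 CPM in contralateral cortices. In CPM, infarcts were again tightly grouped, at a coefficient of variation of 3.998%. The log2 fold change was 3.70 (standard error 0.20, edgeR adjusted *p* = 4.07e-07). Exons of a gene on the opposite strand cover 2.26% of its exon bases.

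Of the thrombospondins, *Thbs1* (ENSMUSG00000040152, chromosome 2, 118111876 to 118127133, plus strand) encodes an inhibitor of angiogenesis that can activate latent TGF-β. It had 235, 173 and 147 CPM in infarcts against 16.0, 10.7 and 12.5 CPM in contralateral cortices. *Thbs2* (ENSMUSG00000023885, chromosome 17, 14665500 to 14694235, minus strand), the close relative of *Thbs1* with the same trimeric build, had 264, 192 and 176 CPM in infarcts against 11.3, 13.1 and 12.6 CPM in contralateral cortices. For both genes, infarct 1 was the highest and infarct 3 the lowest infarct library, and no infarct came near the contralateral values. The log2 fold change was 3.82 for *Thbs1* (standard error 0.23, edgeR adjusted *p* = 8.56e-07) and 4.10 for *Thbs2* (standard error 0.20, edgeR adjusted *p* = 2.82e-07). A gene on the opposite strand shares 3.42% of the exon bases of *Thbs1*.

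*Thbs4* (ENSMUSG00000021702, chromosome 13, 92751590 to 92794818, minus strand) and *Thbs3* (ENSMUSG00000028047, chromosome 3, 89215180 to 89226837, plus strand) encode pentameric thrombospondins. *Thbs4* had 50.2, 41.5 and 71.8 CPM in infarcts against 1.72, 1.95 and 2.77 CPM in contralateral cortices, where its counts were 33, 30 and 30. Infarct 3 was the highest, and the coefficient of variation of 28.6% over infarcts was the widest of the 10 genes. The log2 fold change of *Thbs4* was 4.69 (standard error 0.29, edgeR adjusted *p* = 8.03e-07), or 25.8-fold. *Thbs3* had 18.9, 22.1 and 16.8 CPM in infarcts against 9.14, 5.73 and 6.28 CPM in contralateral cortices. The regions did not overlap for *Thbs3* either, but its log2 fold change of 1.44 (standard error 0.23, edgeR adjusted *p* = 3.59e-04) was the lowest among the 9 genes called higher. Exons of *Mtx1* on the opposite strand cover 6.59% of the exon bases of *Thbs3*.

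The makeup of the *Thbs1* to *Thbs4* counts was described within each library, where scaling has no effect. These shares follow from the unlike fold changes given above, so those of *Thbs2*, *Thbs3*, and *Thbs4* are a description with no test. Per exon base, *Thbs3* made up 28.4%, 21.9% and 21.7% in contralateral cortices, and 4.09%, 6.26% and 4.66% in infarcts. *Thbs4* made up 7.87%, 10.96% and 14.1% in contralateral cortices and 16.0%, 17.2% and 29.3% in infarcts, so that the regions did not overlap for either gene. The share of *Thbs2* per exon base was 29.5% ± 5.16 in contralateral cortices and 36.9% ± 2.90 in infarcts, and the regions overlapped, whereas on counts it was 36.0% ± 6.02 and 44.7% ± 1.81 without overlap. For *Thbs1*, the share of counts was 37.5% ± 3.998 in contralateral cortices and 39.2% ± 3.07 in infarcts (two-sided exact permutation *p* = 0.7), a difference within the spread between libraries.

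**Figure D3:**
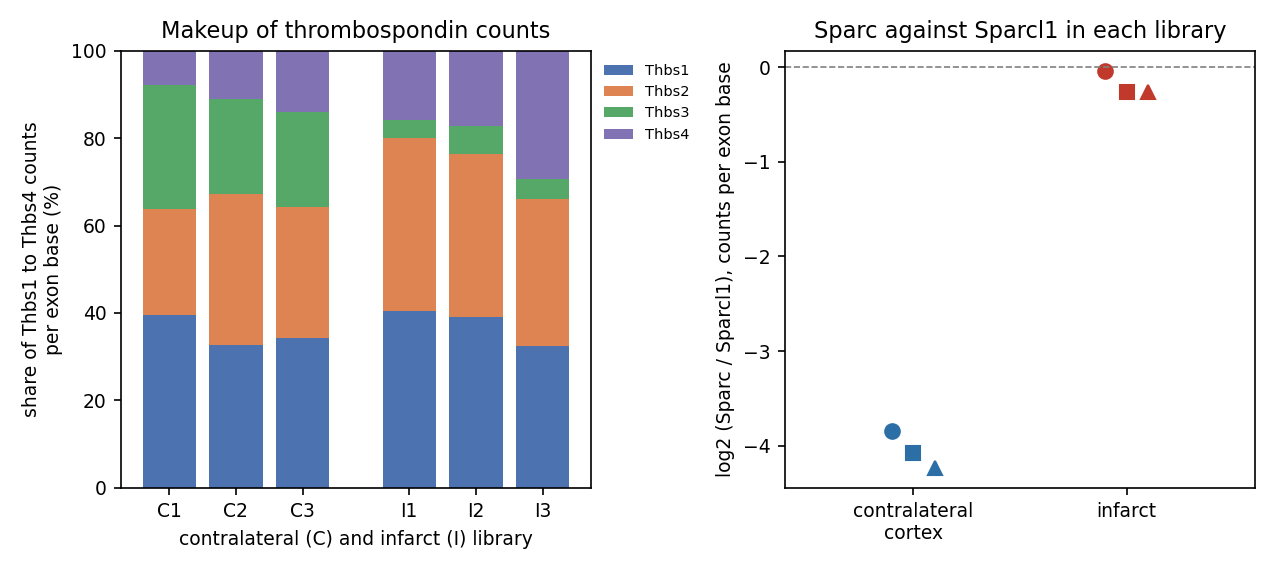
Left, the percent share of each of *Thbs1* to *Thbs4* in their summed counts per exon base, with 1 stacked bar per library (C, contralateral cortex; I, infarct). Right, the log2 ratio of *Sparc* to *Sparcl1* counts per exon base with 1 point per library (blue, contralateral cortex; red, infarct), which lies between -4.24 and -3.85 in contralateral cortices and between -0.26 and -0.04 in infarcts.

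SPARC and hevin belong to the same protein family, yet their genes gave unlike results. *Sparc* (ENSMUSG00000018593, chromosome 11, 55394500 to 55423183, minus strand), whose product binds collagen and counters cell adhesion, had 1020.9, 941 and 978 CPM in infarcts. In contralateral cortices it had 93.3, 93.0 and 92.4 CPM, a coefficient of variation of 0.507%. The log2 fold change was 3.40 (standard error 0.16, edgeR adjusted *p* = 2.18e-07), or 10.5-fold.

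*Sparcl1* (ENSMUSG00000029309, chromosome 5, 104079111 to 104113733, minus strand) had 811, 876 and 911 CPM in infarcts against 1043, 1221 and 1350.3 CPM in contralateral cortices. The regions did not overlap, but the difference was small, with a log2 fold change of -0.48 (standard error 0.17, edgeR adjusted *p* = 0.0297) that did not reach the fold threshold. Its adjusted *p* was 0.05 or above in 6 of the 14 alternative fits that tested against no change (glmTreat, which tests against a fold change of 2, is not among them), namely library totals (0.168), the replicate number as a block (0.0520) and 4 of the 6 fits that left out 1 library, infarct 1 (0.0816), infarct 2 (0.0852), contralateral cortex 2 (0.0700) and contralateral cortex 3 (0.114).

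Within each library, the log2 ratio of *Sparc* to *Sparcl1* counts was 0.33, 0.10 and 0.10 in infarcts and -3.48, -3.71 and -3.87 in contralateral cortices. Per exon base, infarcts thus had nearly as much *Sparc* as *Sparcl1*, with log2 ratios of -0.04, -0.26 and -0.26, where the contralateral cortex had ratios of -3.85, -4.08 and -4.24. The difference of 3.87 log2 units far exceeded the SD of 0.13 in infarcts and 0.19 in contralateral cortices (two-sided exact permutation *p* = 0.1, the smallest that 3 against 3 libraries can give), and it does not depend on library scaling. It follows from the unlike fold changes of *Sparc* and *Sparcl1* given above, so the permutation test adds no support beyond them.

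*Fbln5* (ENSMUSG00000021186, chromosome 12, 101746565 to 101819055, minus strand) had 30.9, 20.7 and 28.5 CPM in infarcts against 7.94, 4.17 and 11.2 CPM in contralateral cortices, where its coefficient of variation of 45.2% was the widest of the 10 genes. The lowest infarct was still above the highest contralateral cortex. The log2 fold change was 1.79 (standard error 0.33, edgeR adjusted *p* = 0.00120), or 3.47-fold, and it ranged from 1.48 to 2.13 as each library was left out in turn.

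To compare levels between genes, counts were divided by the exon length of each gene and scaled to a common total per library (transcripts-per-million units, TPM). In the contralateral cortex, *Sparcl1* stood far above the other genes at 1643 ± 150 TPM, rank 27 of 15499 genes. *Sparc* followed at 98.6 ± 4.74 TPM and *Fn1* at 24.7 ± 3.89 TPM. From *Thbs1* (8.66 TPM) through *Thbs2* (7.06), *Thbs3* (5.90), *Fbln5* (4.47), and *Thbs4* (2.61) to *Tnc* (1.98 TPM), each gene overlapped the next in that order across libraries. *Postn* was lowest at 1.198 ± 0.257 TPM and did not overlap *Tnc*.

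In infarcts, *Sparcl1* at 1247 ± 162 TPM and *Sparc* at 1089 ± 51.2 TPM overlapped. *Sparc* went from rank 1738 to rank 71 among tested genes, and *Fn1*, at 349 ± 20.4 TPM, from 5627 to 339. *Thbs1* (127 ± 21.4 TPM) and *Thbs2* (125 ± 17.6 TPM) overlapped, followed by *Thbs4* (70.1 ± 22.8), *Postn* (47.6 ± 5.49), and *Tnc* (27.2 ± 3.04), each of which was set apart from its neighbors. *Thbs3* (16.8 ± 2.81) and *Fbln5* (16.2 ± 2.68) came last and overlapped. *Postn* therefore moved from the last to the seventh place of the 10 genes and *Thbs4* from the eighth to the sixth. Infarct libraries ran from 41.4 to 51.7 TPM for *Postn* and from 23.8 to 29.5 TPM for *Tnc*. For both, the relative spread was wider in TPM than in CPM. Of the summed TPM of the 10 genes, *Sparcl1* accounted for 90.2% to 91.9% in contralateral cortices and 36.4% to 41.9% in infarcts. *Fn1* and *Sparc* together accounted for 6.40% to 7.60% and 44.9% to 48.2%.

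The infarct libraries did not rank alike for every gene. In CPM, infarct 1 was the highest infarct for *Fn1*, *Thbs1*, *Thbs2*, *Sparc*, and *Fbln5*. Infarct 2 was the highest for *Thbs3*, and infarct 3 for *Postn*, *Tnc*, *Thbs4*, and *Sparcl1*. The order depends on the unit for *Sparc* and *Fbln5*, which were highest in infarct 3 in TPM. *Sparc* had 1038, 1089 and 1140 TPM in infarcts 1, 2 and 3, and *Fbln5* had 17.2, 13.1 and 18.2 TPM. In CPM, infarct 1 had the most summed expression of 8 fibroblast and leptomeningeal markers (6454 CPM, against 5691 in infarct 2 and 5078 in infarct 3). Within that list, *Col1a1* was highest in infarct 3 and *Lum* in infarct 2. Infarct 1 likewise had the most of the macrophage and microglia markers (1909 CPM, against 1490 and 1364). The same held for pericyte and smooth muscle markers (750 CPM, against 559 and 529) and endothelial markers (537 CPM, against 440 and 409). Infarct 1 had the least of the 8 neuronal markers (621 CPM, against 914 and 1635) and of 8 astrocyte markers (5345 CPM, against 5679 and 7894). It also had the least of the oligodendrocyte markers (4103 CPM, against 4727 and 6691). The part of these differences in the values above was not tested.

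Each gene was then set beside its family, using a list of 17 relatives. Of the 16 that passed the filter, 12 were called higher and 4 lower, with a median log2 fold change of 3.49. The thrombospondin family moved 1 way, with *Thbs1* to *Thbs4* and *Comp* (cartilage oligomeric matrix protein, a pentameric thrombospondin) all called higher. *Comp* had 10.8 ± 4.22 CPM in infarcts against 0.392 ± 0.160 CPM in contralateral cortices. Summed over the 5 genes, thrombospondin transcripts amounted to 355 ± 18.97 TPM in infarcts and 24.8 ± 3.21 TPM in contralateral cortices. All 7 fibulins (*Fbln5*, *Fbln1*, *Fbln2*, *Fbln7*, *Efemp1*, *Efemp2*, *Hmcn1*) were likewise called higher, and their sum was 797 ± 142 TPM in infarcts and 37.2 ± 5.36 TPM in contralateral cortices. *Fbln5* itself contributed little to that sum, most of which came from *Efemp1* (427, 472 and 317 TPM in infarcts) and *Fbln1* (342, 355 and 237 TPM). In the list of relatives, the fasciclin-domain gene set beside *Postn* was *Tgfbi*. It had 168 ± 58.3 CPM in infarcts against 2.76 ± 0.568 CPM in contralateral cortices (log2 fold change 5.95, standard error 0.30).

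The SPARC and tenascin families were divided. Of 8 SPARC family genes, *Sparc*, *Smoc1*, *Smoc2*, and *Fstl1* were called higher, the testican genes *Spock1*, *Spock2*, and *Spock3* (proteoglycans abundant in neurons) were called lower, and *Sparcl1* was not called. *Smoc2* had 283 ± 32.8 CPM in infarcts against 15.1 ± 0.714 CPM in contralateral cortices, whereas *Spock1* had 92.5 ± 41.5 CPM and 618 ± 41.1 CPM. Summed over the family, the level was 3586 ± 465 TPM in infarcts and 2709 ± 114 TPM in contralateral cortices. Among tenascins, *Tnc* and *Tnxb* were called higher and *Tnr*, the tenascin of perineuronal nets, was called lower, with 114 ± 32.1 CPM in infarcts against 371 ± 24.5 CPM in contralateral cortices. *Tnn* did not pass the filter, with 8, 38 and 18 counts in infarcts against 8, 3 and 3 contralaterally. The summed tenascins stood at 76.3 ± 15.0 TPM in infarcts against 119 ± 12.7 TPM in contralateral cortices, where *Tnr* made up most of the sum, whereas *Tnc* alone went from 1.98 ± 0.414 to 27.2 ± 3.04 TPM.

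Among 11 other matricellular and adhesive proteins, 8 were called higher (edgeR) and 3 were not called, with a median log2 fold change of 3.47. *Spp1*, which encodes osteopontin, a ligand of integrins made by macrophages and bone cells, had the largest log2 fold change of this list, at 7.22, and *Emilin1*, an elastin-associated glycoprotein, followed at 5.37. *Vtn*, which encodes vitronectin, had 109 ± 21.2 CPM in infarcts against 53.8 ± 18.3 CPM in contralateral cortices. The fitted change of *Vtn*, 1.01 on the log2 scale, was at the threshold, and the call was lost without infarct 1 (0.87), contralateral cortex 1 (0.92) or contralateral cortex 2 (0.83). The CCN genes, a further matricellular family, were mixed. *Ccn5* (log2 fold change 4.395) and *Ccn1* (1.62) were called higher, whereas *Ccn2* (connective tissue growth factor), *Ccn3*, and *Ccn4* were not called, with log2 fold changes of 0.98, -0.88 and 0.41. *Ccn2* passed the fold threshold without infarct 2 (1.01), infarct 3 (1.02) or contralateral cortex 1 (1.08).

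Receptors of these ligands were mostly called higher. Of 16 receptor genes, 15 passed the filter and 12 were called higher (edgeR), with a median log2 fold change of 2.29. The chains of the classical fibronectin receptor, *Itga5* and *Itgb1*, had 55.3 ± 4.50 and 1005 ± 205 CPM in infarcts against 2.90 ± 0.354 and 131 ± 20.8 CPM in contralateral cortices. *Sdc1*, the cell surface proteoglycan syndecan-1, had a log2 fold change of 6.31. *Itgav*, *Itgb8*, and *Cd47* were not called. *Itgav*, which pairs with several β chains to bind fibronectin, periostin, and vitronectin, had 449 ± 64.6 CPM in infarcts against 444 ± 54.5 CPM in contralateral cortices, and its libraries overlapped. The 2 well-known thrombospondin-1 receptors gave unlike values, since *Cd36* had 969 ± 124 CPM in infarcts against 3.83 ± 0.743 CPM in contralateral cortices and *Cd47* had 328 ± 29.3 and 330.2 ± 49.2 CPM. The log2 fold change of *Cd47* stayed between -0.08 and 0.11 whichever library was left out. *Itgb6* had 0 or 1 count in every library.

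Of 11 elastic fiber genes, with which fibulin-5 works, 9 were called higher (edgeR), with a median log2 fold change of 4.35, also with *Mfap5* at its lower bound. *Mfap5* had at most 2 counts per contralateral library, and a bound computed at 3 counts in each of them put infarcts at least 20.6-fold higher. *Ltbp2* (log2 fold change 7.68), a binding partner of fibulin-5, and *Lox* (6.19), which encodes lysyl oxidase, were among those called. *Eln*, the gene of elastin, had 10.9, 10.5 and 12.2 CPM in infarcts against 1.62, 1.43 and 1.02 CPM in contralateral cortices. *Ltbp4* (0.92, or 1.11 and called without infarct 2) and *Fbn2* (-0.28) were not called.

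Of neuronal proteins tied to the action of thrombospondins and hevin on synapses, the 3 whose genes are reported here were called lower (edgeR). *Cacna2d1*, which encodes the α2δ-1 subunit bound by thrombospondins, had 111, 133 and 176 CPM in infarcts against 911, 978 and 959 CPM in contralateral cortices. The neuroligin genes *Nlgn1* (log2 fold change -2.23) and *Nlgn2* (-1.59), which encode adhesion proteins of the postsynaptic membrane, were lower as well.

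**Figure D4:**
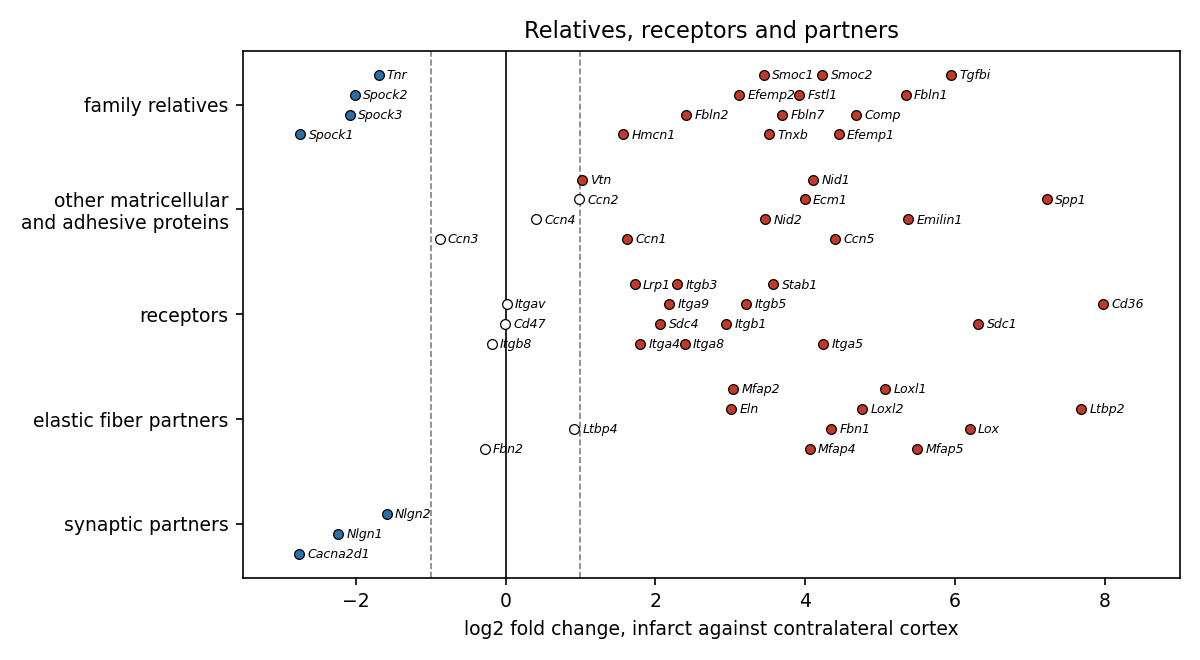
Log2 fold change, infarct against contralateral cortex, of each tested gene in the lists of relatives, other matricellular and adhesive proteins, receptors, elastic fiber partners, and synaptic partners. Red points are called higher, blue points lower and open points are not called, and dashed lines mark a fold change of 2. The 3 synaptic partners shown lie below -1, and *Itgav* and *Cd47* lie next to 0.

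Markers of cell types that could hold these transcripts differed between the regions to a degree that varied by list. Their part in the results was not tested. The 8 markers of fibroblasts and leptomeninges were all called higher, with 5078 to 6454 CPM in infarcts and 228 to 322 CPM in contralateral cortices. Likewise, 8 of 8 macrophage and microglia markers were called higher (1364 to 1909 CPM and 145 to 192 CPM). Of 8 pericyte and smooth muscle markers, 5 were called higher (529 to 750 CPM and 248 to 300 CPM), and of 7 endothelial markers, 2 (409 to 537 CPM and 328 to 376 CPM). For 8 astrocyte markers, 2 were called higher (*Aqp4* and *Gfap*), 1 lower (*Slc1a2*) and 5 not called, with a median log2 fold change of -0.41. Their sum was 5345 to 7894 CPM in infarcts and 13864 to 14755 CPM in contralateral cortices. *Slc1a2* alone made up most of the contralateral sum. It had 2376, 2500 and 3922 CPM in infarcts against 12106, 12994 and 11792 CPM contralaterally, so the sum does not stand for the list. For 6 oligodendrocyte markers, 3 were called higher (4103 to 6691 CPM and 2131 to 2538 CPM).

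Markers of blood platelets, bone, muscle, and choroid plexus were scarce. The mice had been perfused with saline per the study's methods. Summed platelet markers, of interest because platelets store thrombospondin-1, SPARC, and fibronectin, stood at 4.22 to 4.85 CPM in infarcts and 1.04 to 2.35 CPM in contralateral cortices, with 1 of 3 tested genes (*Pf4*) called higher. The other 2 platelet markers were not tested, *Ppbp* with 10, 8 and 17 counts in infarcts against 0, 0 and 0 contralaterally and *Gp9* with 3 counts or fewer in every library. Summed osteoblast markers stood at 2.31 to 3.16 CPM and 0.456 to 0.575 CPM, with the 1 tested gene of 4, *Sp7*, called higher. Of the untested ones, *Ibsp* had 10, 9 and 12 counts in infarcts against 0, 0 and 0 contralaterally, and *Bglap* and *Bglap2* had 3 counts or fewer throughout. Skeletal muscle markers stood at 0.319 to 2.06 CPM and 9.57 to 12.1 CPM, with the 1 tested gene of 5, *Acta1*, called lower. *Acta1* alone made up most of the contralateral sum, with 10.97, 9.05 and 11.2 CPM. Among the untested genes, *Tnnt3* had 1, 14 and 7 counts in infarcts against 2, 0 and 1 contralaterally. *Mb* had 0, 3 and 0 counts against 7, 7 and 4, and *Myh4* had 3 counts or fewer throughout. Choroid plexus markers stood at 6.39 to 18.4 CPM and 6.84 to 7.38 CPM, with 1 of 3 tested genes (*Folr1*) called higher. *Ckm* and *Ttr*, the leading markers of the last 2 lists, were at 3 counts or fewer in every library.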

How the data were processed

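Infarcts and contralateral cortices were profiled with stranded mRNA libraries. Per the study's methods and the submitters' processing notes, the authors demultiplexed reads with bcl2fastq 2.19, trimmed them with Trimmomatic 0.32, aligned them to GRCm38 with STAR 2.5.2b, and counted them per Ensembl gene with HTSeq. The deposited values are raw counts. For HTSeq, neither version nor annotation nor strandedness is given in the sources used here. The 5 entries per library that name no gene were left out, so that 65.7% to 73.4% of tallied reads were used.

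The members and the gene lists were chosen with earlier results of these data known. Symbols, positions, and exon lengths came from GENCODE M21 (GRCm38), which matched 45229 of 46078 identifiers. Counts were filtered with filterByExpr, scaled with TMM, and fitted with edgeR 4.0.16 in R 4.3.3 (glmQLFit, robust, and glmQLFTest), with region as the only term. *p* values were adjusted by Benjamini-Hochberg over 15554 tested genes. A standard error is the log2 fold change divided by the square root of its *F* statistic. The fit was checked on simulated data. Ratios within a library were compared with exact permutation tests. Alternatives were DESeq2 1.42.0, limma 3.58.1 (voom), other scalings and filters, glmTreat, the replicate number as a block, and each library left out. The genes named are the 10 members and, of each pathway list, the 3 called genes with the largest absolute log2 fold changes and those not called or not tested. Further family relatives, *Vtn*, *Ccn1*, *Itgb1*, and *Eln* were named after their values were seen. A gene of the synaptic list is not reported here, for a reason unrelated to its values. Exon overlap with other genes was measured for the 10 members only. Bounds at 3 counts cover counting error only.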

Additional observations from a re-analysis of the deposited data

How the results depend on the processing

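With every alternative run, 9 of the 10 genes were called higher in infarcts. None was called lower except without the fold threshold, where 1 gene, *Sparcl1*, was. The log2 fold changes of the 10 genes kept their sign and their call in all 150 comparisons with an alternative. The lowest and highest values over the alternatives were 5.06 and 5.44 for *Postn*, 3.64 and 3.96 for *Fn1*, 1.30 and 1.67 for *Thbs3*, and -0.58 and -0.27 for *Sparcl1*. The share of *Thbs1* among thrombospondin counts, 1.63 percentage points higher in infarcts, ranged from -0.0944 to 3.82 points as libraries were left out, and the negative value arose without contralateral cortex 2. All other counts stayed within 1.5 times their value. The infarct and contralateral libraries share replicate numbers without a stated pairing. The numbers were therefore not treated as pairs. Deviations of same-numbered libraries from their region's mean had correlations of -0.19, 0.10 and 0.00110, which with 3 libraries per region cannot decide whether they are paired. None of the infarcts correlated best with the contralateral cortex of its own number. With the number as a block, 3945 genes were called higher and 3222 lower, against 3999 and 3256 without it. *Postn* and *Thbs4* had few counts in the contralateral cortex, which adds counting error to their fold changes. Their standard errors of 0.20 and 0.29 nevertheless lay within the range over the 10 genes, from 0.16 for *Sparc* to 0.33 for *Fbln5*.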
